A study of Mus musculus with 15 samples.

Results

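The tubulin genes examined here were the β-tubulin genes Tubb3, Tubb2a, Tubb2b, Tubb4a, Tubb4b, Tubb5 and Tubb6 and the α-tubulin genes Tuba1a, Tuba1b and Tuba1c. They were chosen by their symbols, with earlier results of these data known. The authors had named Tubb3 among the hub genes of a module induced by IL-12 in these cultures, so its rise is not an independent finding. The tubulin genes are 10 of the 35142 genes with a transcript in the deposited tables, and all 10 were among the 15360 genes with enough reads to be tested. RNA was sequenced in bulk from 15 cultures of dissociated cerebellar cells from wild-type C57BL/6 pups taken between postnatal day 0 and postnatal day 4. From day 14 in vitro, 5 cultures received recombinant murine IL-12p70, the active form of the cytokine IL-12, at 30 ng/ml and 5 received it at 100 ng/ml, both for 18 h, and 5 cultures stayed unstimulated. All cultures grew in the same supplemented Neurobasal Plus medium on coated 12-well plates, and no group carried a transgene or a deleted gene. The labels number the cultures but do not name the animals or preparations behind them, so p-values measure only the spread between these cultures, which may be technical.

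Microtubules are polymers of a dimer of α-tubulin and β-tubulin, and mammals encode each subunit in several genes, called isotypes. Tubb3 encodes class III β-tubulin, which neurons make from early in their differentiation and which is widely used as a neuronal marker. Tuba1a, Tubb2a and Tubb2b are the main isotypes of growing neurons and are also made by glia. Tubb5, Tubb4b and Tuba1b are made in most tissues, and Tubb4a is abundant in the brain, in oligodendrocytes as well as in neurons. The isotypes differ most in their acidic C-terminal tails, to which many microtubule-binding proteins attach and which carry most of the chemical modifications of tubulin.

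The labels call the cells neurons, and the marker genes showed a mixed culture. The summed TPM (the level of a transcript corrected for its length and for the depth of the library) of 19 neuron markers lay between 181.4 and 244.8 over the 15 cultures. The sums were 7724 to 13610 for 15 markers of microglia, 6288 to 10420 for 14 markers of the oligodendrocyte lineage and 4089 to 5580 for 12 markers of astrocytes. The lists differ in length and in how abundant their genes are, and Mbp alone held 3485 to 5845 TPM. The sums therefore do not give proportions of cells. Cldn5, a defining gene of brain endothelium, and Ncr1, a defining gene of NK cells, were at 0 in every culture. Other genes of the same lists had reads. The sums were 18.22 to 32.51 TPM for 7 endothelial markers and 3.331 to 8.156 TPM for 9 markers of T and NK cells. A 0 for 1 gene therefore does not show that these cells were absent. In such bulk RNA, fewer cells of a type and less RNA per cell cannot be told apart. The libraries held 25746096 to 38435850 estimated reads.

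The coding ends of 6 β isotypes are shown because they are where the genes differ, and because the reads can be told apart only by such differences. Each line gives the last 20 codons and the stop codon of the main transcript, read 5′ to 3′ from GENCODE M39. Capitals mark in-frame codons for acidic residues (GAA, GAG, GAC and GAT). Each stretch lay within a single exon of a transcript of 4 exons.
Tubb3 (GRCm39 chr8:124148359-124148421, plus strand): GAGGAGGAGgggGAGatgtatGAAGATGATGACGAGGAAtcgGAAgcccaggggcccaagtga
Tubb2a (GRCm39 chr13:34258451-34258513, minus strand): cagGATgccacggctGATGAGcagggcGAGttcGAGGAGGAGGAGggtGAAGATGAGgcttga
Tubb2b (GRCm39 chr13:34311454-34311516, minus strand): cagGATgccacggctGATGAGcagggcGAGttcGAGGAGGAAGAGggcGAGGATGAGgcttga
Tubb4a (GRCm39 chr17:57387690-57387752, minus strand): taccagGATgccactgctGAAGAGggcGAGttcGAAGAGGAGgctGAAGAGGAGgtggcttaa
Tubb4b (GRCm39 chr2:25112320-25112382, minus strand): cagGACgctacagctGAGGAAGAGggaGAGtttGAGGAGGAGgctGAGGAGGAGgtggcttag
Tubb5 (GRCm39 chr17:36145874-36145936, minus strand): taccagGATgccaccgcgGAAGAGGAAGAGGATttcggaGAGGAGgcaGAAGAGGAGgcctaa

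Of the 20 codons, 11 were acidic in Tubb3, Tubb2a, Tubb2b, Tubb4b, Tubb5 and Tubb6, and 10 were acidic in Tubb4a. Tubb3 ended in a lysine codon (aag), which the codons gcc, cag, ggg and ccc separated from the last acidic one. Tubb2a and Tubb2b differed at 3 of the 63 bases shown. Over the whole coding sequence, pairs of β-tubulin genes were 80.2% to 96.5% identical, the highest value being that of Tubb2a and Tubb2b. Tubb3 was closest to Tubb6 (85.9%). The 3 α-tubulin genes were 97.1% to 98.3% identical.

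These likenesses limit what a read of 100 bases can tell. For Tubb3, Tubb4a, Tubb4b, Tubb5 and Tubb6, 0% of the 100-base windows of the coding sequence occurred in a transcript of another gene. For Tubb2a and Tubb2b, 43.8% of the windows occurred in the other of the pair. The shares were 65.8% for Tuba1a, 73.5% for Tuba1b and 80.4% for Tuba1c, so their separate values rest on how the quantification divided shared reads, as well as on their untranslated ends. On GRCm39, Tuba1a (chr15:98847714-98851589) and Tuba1b (chr15:98827738-98832493) lie on the minus strand and Tuba1c (chr15:98927748-98936266) on the plus strand of the same region. Tubb2a (chr13:34257549-34261998) and Tubb2b (chr13:34307245-34315143) lie side by side on the minus strand. Tubb3 (chr8:124138163-124150092) has no overlapping gene with reads.

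In unstimulated cultures the α-tubulin genes Tuba1a and Tuba1b were the highest of the 10 and Tubb3 was the lowest. Tuba1a stood at 3174 ± 204 TPM (SD, n = 5), rank 29 of 14183 protein-coding genes, and made up 45.1% of the tubulin TPM of the 10 genes. Tubb3 stood at 53.4 ± 8.12 TPM (SD, n = 5), rank 3093, and made up 0.759%. From the top, the order of mean levels was Tuba1a, Tuba1b (1231 TPM), Tubb4b (790.02), Tubb2a (525), Tubb5 (411), Tubb4a (356), Tubb2b (313), Tuba1c (97.3), Tubb6 (90.9) and Tubb3. The neighbours Tubb5 and Tubb4a, Tubb4a and Tubb2b, and Tuba1c and Tubb6 overlapped between cultures and cannot be ranked against each other. The other neighbours in that order did not overlap in any unstimulated culture. Together the 10 genes held 0.704% ± 0.034 of all TPM without IL-12, 0.813% ± 0.016 with 30 ng/ml and 0.781% ± 0.040 with 100 ng/ml (SD, n = 5).

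**Figure D1:**
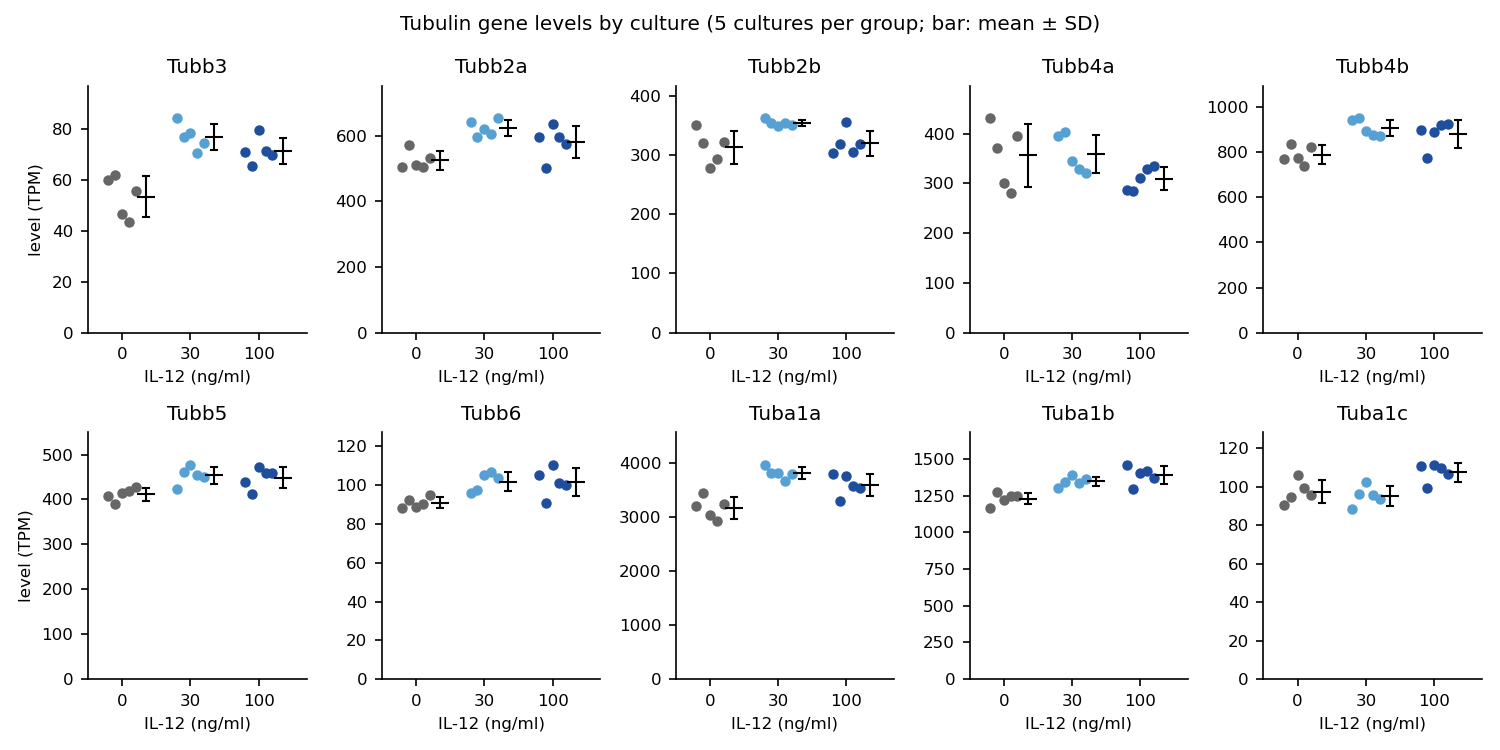
TPM of each tubulin gene in every culture against the IL-12 concentration in ng/ml, with 5 cultures per group, each point 1 culture and each bar the mean ± SD; the vertical axes start at 0 and differ between genes. All 10 stimulated cultures lie above the highest unstimulated culture for Tubb3 (61.7 TPM) and for Tuba1b (1277 TPM).

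Tubb3 was higher at both concentrations of IL-12. In unstimulated cultures its level was 59.8, 61.7, 46.6, 43.3 and 55.7 TPM. With 30 ng/ml it was 84.2, 77.0, 78.4, 70.3 and 74.5 TPM, and with 100 ng/ml 70.9, 65.5, 79.5, 71.4 and 69.8 TPM. Every stimulated culture lay above every unstimulated one, and the 2 concentrations overlapped. Its log2 fold change was 0.50 ± 0.08 (SE) at 30 ng/ml, a rise of 41.4%, with an FDR of 0.00118 by edgeR's quasi-likelihood test. At 100 ng/ml it was 0.43 ± 0.08 (SE), a rise of 34.4%, with an edgeR FDR of 0.00272. Over both concentrations it was 0.46 ± 0.07 (SE), with an edgeR FDR of 0.000413. The FDR is the Benjamini-Hochberg adjusted p over all 15360 genes tested, and a gene was called when it was under 0.05.

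The rise of Tubb3 did not turn on the settings tried. It was called at 30 and at 100 ng/ml under all 24 other settings, with FDRs of at most 0.00558 and 0.0123 and log2 fold changes of 0.44 to 0.55 and of 0.37 to 0.48. Between the concentrations its log2 difference, 100 minus 30 ng/ml, was −0.07 with a normal 95% interval of −0.23 to 0.08. That difference was not called (edgeR FDR 0.744), and the values do not tell a difference within that interval from 0. Its reads numbered 1284 to 2574 per culture. Of its 2 annotated transcripts, Tubb3-201 carried at least 98.5% of the TPM in every culture.

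Tubb3-201 was also the only tubulin transcript called when transcripts were tested one by one. Its log2 fold change was 0.50 (edgeR FDR 0.0256) at 30 ng/ml, 0.43 (FDR 0.0462) at 100 ng/ml and 0.46 (FDR 0.0111) over both. Among all 41631 transcripts tested, 0.353%, 0.55% and 0.783% were called in these comparisons, in either direction. The 10 genes have 19 transcripts in the tables, and the main transcript held at least 95.9% of each gene's TPM, except for Tubb2b, where it held at least 76.3%. The remainder of Tubb2b was a short transcript without a defined coding sequence, Tubb2b-202, at 23.3 to 75.5 TPM.

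Across the 10 genes, 4 were called higher at 30 ng/ml (Tubb3, Tubb2a, Tubb2b and Tuba1a) and 3 at 100 ng/ml (Tubb3, Tuba1a and Tuba1b), and none was called lower. Of all genes tested, 4.16% were called higher and 3.71% lower at 30 ng/ml, and 5.83% higher and 3.93% lower at 100 ng/ml. Over both concentrations 5 were called higher (Tubb3, Tubb2a, Tubb4b, Tuba1a and Tuba1b), against 6.71% of all genes higher and 5.22% lower. The median log2 fold change of the 10 lay at 0.153 for 30 ng/ml and at 0.16 for 100 ng/ml, where the medians of all genes tested were 0.000137 and −0.00379. The TPM of 6 genes did not overlap between unstimulated and 30 ng/ml cultures (Tubb3, Tubb2a, Tubb4b, Tubb6, Tuba1a and Tuba1b), each higher with IL-12, as in 5.38% of all genes. At 100 ng/ml this held for 2 genes (Tubb3 and Tuba1b), as in 3.63% of all genes. The comparisons share the unstimulated cultures, so their counts are not independent.

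**Figure D2:**
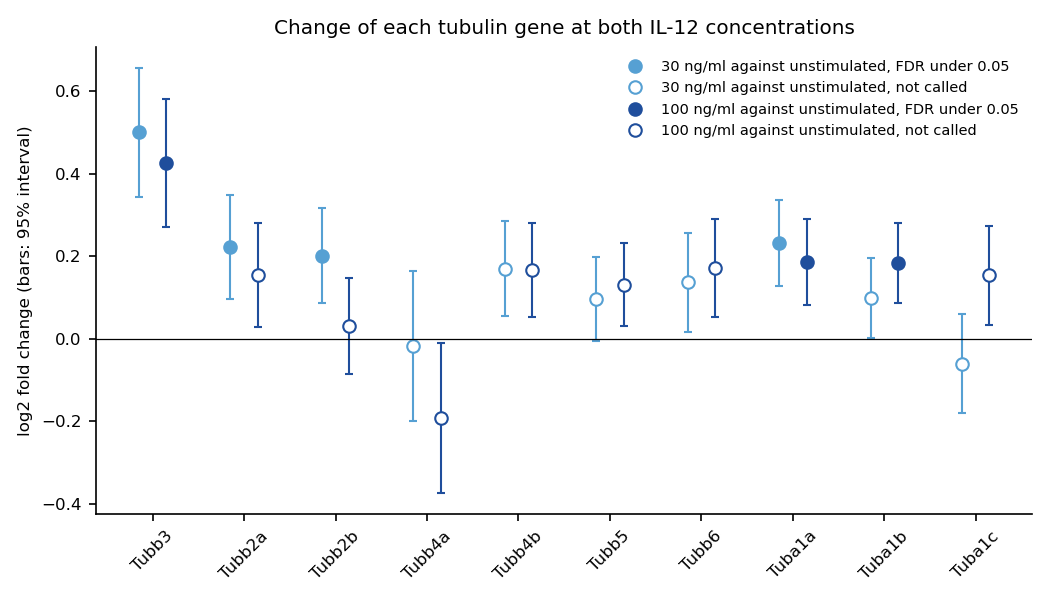
Log2 fold change of each tubulin gene against unstimulated cultures at 30 ng/ml (light) and 100 ng/ml (dark), with the normal 95% interval from the SE as a bar and a filled point where the edgeR FDR was under 0.05 (n = 5 cultures per group). The bars are narrower than intervals of the quasi-likelihood test would be. For Tubb4a at 100 ng/ml the bar (−0.373 to −0.0094) excludes 0, while that test gave an unadjusted p of 0.0544. Tubb3 has the highest value at both concentrations (0.50 and 0.43), and Tubb4a has the lowest at 100 ng/ml (−0.19).

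Tuba1a, the most abundant isotype, was called at both concentrations. Its unstimulated levels were 3212, 3451, 3039, 2921 and 3248 TPM. With 30 ng/ml they were 3972, 3809, 3814, 3661 and 3799 TPM, and with 100 ng/ml 3794, 3300, 3768, 3578 and 3533 TPM. At 30 ng/ml all 5 cultures were above every unstimulated one, whereas at 100 ng/ml replicate 2, the lowest, fell within the unstimulated range. The log2 fold change was 0.23 ± 0.05 (SE, edgeR FDR 0.0129) at 30 ng/ml and 0.19 ± 0.05 (SE, FDR 0.0346) at 100 ng/ml. The call at 30 ng/ml held under all 24 other settings, and the call at 100 ng/ml under 14 of 24. It was lost without unstimulated replicate 1, 3, 4 or 5 or without 100 ng/ml replicate 1, 3 or 4, where the FDR was 0.0579 to 0.0946 and the log2 fold change 0.15 to 0.19. It was also lost with the replicate number as a block (FDR 0.0571), with no filter on low counts (0.0714) and with only the groups compared (0.0832).

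Tuba1b, the isotype of most tissues, was called at 100 ng/ml. Its levels were 1168, 1277, 1220, 1245 and 1246 TPM in unstimulated cultures. They were 1303, 1345, 1392, 1339 and 1361 TPM at 30 ng/ml and 1462, 1297, 1408, 1418 and 1374 TPM at 100 ng/ml. The unstimulated cultures lay below all stimulated ones. Its log2 fold change was 0.18 ± 0.05 (SE, edgeR FDR 0.0280) at 100 ng/ml and 0.10 ± 0.05 (SE, FDR 0.252) at 30 ng/ml. The call at 100 ng/ml held under 17 of 24 other settings. It was lost without unstimulated replicate 1 or 5 or without 100 ng/ml replicate 1, 3 or 4, where the FDR was 0.0564 to 0.0794 and the log2 fold change 0.15 to 0.18, and also with no filter on low counts (FDR 0.0543) and with only the groups compared (0.0625).

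Tuba1c, the least abundant α isotype, was not called. It ranged over 90.6 to 106.2 TPM unstimulated, 88.4 to 102 TPM at 30 ng/ml and 99.5 to 111 TPM at 100 ng/ml. Tuba1c had a log2 fold change of −0.06 ± 0.06 (SE, edgeR FDR 0.610) at 30 ng/ml and 0.15 ± 0.06 (SE, FDR 0.119) at 100 ng/ml. Its difference between the concentrations, 100 minus 30 ng/ml, was 0.21 (95% interval 0.09 to 0.33, FDR 0.151). Because the 3 α genes share so much sequence, their reads were also summed. The sum rose by 0.19 on the log2 scale at 30 ng/ml (edgeR FDR 0.0255) and by 0.18 at 100 ng/ml (FDR 0.0273) whatever the division of reads between the 3. Each of them also shares windows with the readthrough gene Gm49450, which is not in the sum, and how reads were divided with that gene can still move it. In the fits with that sum, 7.87% and 9.76% of all genes were called, in either direction. The summed reads of the 7 β genes gave log2 fold changes of 0.14 and 0.09, which did not pass (FDR 0.0980 for 30 and 0.280 for 100 ng/ml).

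Among the β isotypes of growing neurons, Tubb2a and Tubb2b were called at 30 ng/ml. Tubb2a stood at 506, 572, 510.5, 505 and 533 TPM unstimulated, at 643, 596, 622, 606 and 654 TPM with 30 ng/ml, and at 597, 503, 635, 596 and 575 TPM with 100 ng/ml. Its 30 ng/ml cultures were all above the unstimulated ones, and at 100 ng/ml replicate 2 was below them all. The log2 fold change was 0.22 ± 0.06 (SE, edgeR FDR 0.0422) at 30 ng/ml and 0.15 ± 0.06 (SE, FDR 0.138) at 100 ng/ml.

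Tubb2b stood at 349.8, 320.0, 278, 293 and 321 TPM unstimulated. With 30 ng/ml it was 362, 354, 348, 353 and 350.1 TPM, and with 100 ng/ml 303, 318, 355, 305 and 317 TPM. The 30 ng/ml cultures lay close together, 4 of 5 above the highest unstimulated culture, and the 100 ng/ml cultures overlapped with the unstimulated ones. The log2 fold change was 0.20 ± 0.06 (SE, edgeR FDR 0.0438) at 30 ng/ml and 0.03 ± 0.06 (SE, FDR 0.795) at 100 ng/ml. Tubb2b differed between the concentrations by −0.17 (95% interval −0.29 to −0.06), which was not called (FDR 0.244). The summed reads of Tubb2a and Tubb2b gave 0.21 (FDR 0.0353) at 30 ng/ml and 0.10 (FDR 0.303) at 100 ng/ml.

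Both of these calls lay near the threshold. The call of Tubb2a at 30 ng/ml held under 12 of 24 other settings and that of Tubb2b under 10 of 24. The call of Tubb2a was lost without any of 10 cultures, which were unstimulated replicates 1, 3, 4 and 5, 30 ng/ml replicates 1, 3, 4 and 5 and 100 ng/ml replicates 4 and 5. There its FDR was 0.0515 to 0.0963 and its log2 fold change 0.20 to 0.22. That of Tubb2b was lost without any of the same cultures or 30 ng/ml replicate 2, with FDRs of 0.0549 to 0.124 and log2 fold changes of 0.17 to 0.21. With the replicate block both calls were lost (FDR 0.0699 for Tubb2a and 0.0824 for Tubb2b), as they were with no filter on low counts (0.0549 and 0.0649), and limma on TPM lost that of Tubb2b (0.0653).

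Tubb4b, Tubb5 and Tubb6, isotypes of many tissues, were not called at either concentration. Tubb4b stood at 772, 838, 777, 739 and 824 TPM unstimulated, at 943, 952, 896, 877 and 873 TPM with 30 ng/ml, and at 899, 774, 891, 920.2 and 926 TPM with 100 ng/ml. All cultures but 100 ng/ml replicate 2 were above the unstimulated range. Tubb4b had a log2 fold change of 0.17 at both concentrations (edgeR FDR 0.0823 at 30 and 0.0791 at 100 ng/ml) and 0.17 over both (FDR 0.0390), the only one of these comparisons in which it was called. With library size alone, with only the groups compared and with limma on TPM it was also called at 30 ng/ml (FDR 0.0475, 0.0256 and 0.0279). The call over both concentrations held under 9 of 23 other settings. It was lost without unstimulated replicate 1, 3, 4 or 5, 30 ng/ml replicate 1, 2, 3 or 4 or 100 ng/ml replicate 1, 3, 4 or 5, where the FDR was 0.0532 to 0.108 and the log2 fold change 0.15 to 0.17.

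Over both concentrations, the calls of Tubb2a (log2 fold change 0.19, edgeR FDR 0.0367) and Tuba1b (0.14, FDR 0.0418) held under 11 and 9 of 23 other settings. That of Tubb2a was lost without unstimulated replicate 1, 3, 4 or 5, 30 ng/ml replicate 1, 3, 4 or 5 or 100 ng/ml replicate 1, 3 or 4 (FDR 0.0508 to 0.106, log2 fold change 0.16 to 0.19). That of Tuba1b was lost without unstimulated replicate 1, 3, 4 or 5, 30 ng/ml replicate 2, 3, 4 or 5 or 100 ng/ml replicate 1, 3, 4 or 5 (FDR 0.0508 to 0.129, log2 fold change 0.12 to 0.15). With the replicate block the calls over both concentrations were lost for Tubb2a (FDR 0.0640), Tuba1b (0.0652) and Tubb4b (0.0774). With no filter on low counts they were lost for Tuba1b (0.0852) and Tubb4b (0.0652). The call of Tuba1a over both (0.21, FDR 0.00739) held under all 23, with an FDR of at most 0.0265.

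Tubb5 ranged over 390.3 to 428 TPM unstimulated, 423 to 477 TPM at 30 ng/ml and 412 to 472 TPM at 100 ng/ml. The log2 fold changes of Tubb5 were 0.10 ± 0.05 (SE, edgeR FDR 0.286) and 0.13 ± 0.05 (SE, FDR 0.117). Tubb6 ranged over 88.1 to 94.8, 95.9 to 107 and 91.0 to 111 TPM, with log2 fold changes of 0.14 ± 0.06 (SE, FDR 0.188) and 0.17 ± 0.06 (SE, FDR 0.0828). For both genes 4 of the 5 cultures at 100 ng/ml were above the highest unstimulated culture.

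Replicate 2 at 100 ng/ml decided many of these calls. Without it, 8 of the 10 genes were called higher at 100 ng/ml in place of 3, and 2932 genes in all in place of 1500. The genes gained were Tubb2a (log2 fold change 0.22, edgeR FDR 0.00528), Tubb4b (0.22, FDR 0.00213), Tubb5 (0.17, FDR 0.0144), Tubb6 (0.22, FDR 0.00618) and Tuba1c (0.19, FDR 0.0317). It also had the smallest library, 25746096 estimated reads. Its tubulin reads were 0.707% of the library, where the other 100 ng/ml cultures had 0.795% to 0.866% and the unstimulated ones 0.69% to 0.768%. Over the genes tested, its reads also lay far from those of its group. The Pearson chi-square per degree of freedom, larger the more 2 libraries differ, was 17.7 to 31.2 against the other 100 ng/ml cultures. Among those others it was 5.88 to 12.9, and within the remaining groups 5.27 to 23.2. Nothing in the labels sets this culture apart, and the call of Tubb3 held with and without it.

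**Figure D3:**
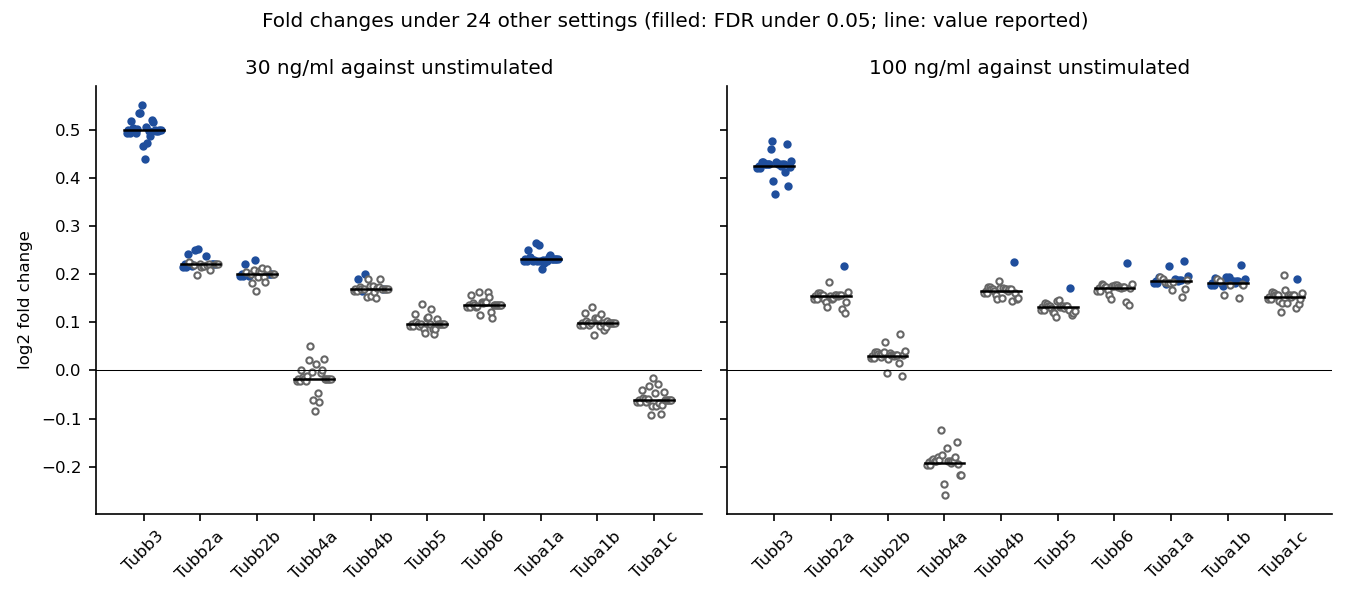
Log2 fold change of each tubulin gene at 30 ng/ml (left) and 100 ng/ml (right) against unstimulated cultures under 24 other settings, which are other tools, filters and scalings and each culture left out in turn. A filled point has an FDR under 0.05, and the black line is the value reported. Tubb3 is filled throughout (log2 fold change 0.37 to 0.55 over both panels), whereas Tubb5 at 100 ng/ml has a single filled point, the fit without replicate 2 of that group (0.17).

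Tubb4a went another way at 100 ng/ml, without passing the test. Its levels were 431, 372, 300.9, 282 and 396 TPM unstimulated, 395, 404, 344.5, 329 and 321 TPM at 30 ng/ml, and 287, 285, 310.2, 329 and 336 TPM at 100 ng/ml. The unstimulated cultures spread more widely than the stimulated ones, and the groups overlapped. Against unstimulated cultures the log2 fold change was −0.19 ± 0.09 (SE, edgeR FDR 0.204) at 100 ng/ml and −0.02 ± 0.09 (SE, FDR 0.938) at 30 ng/ml. At 30 ng/ml its sign turned with library size alone as the scaling and with limma on TPM. Of 14 marker genes of oligodendrocytes, cells known for Tubb4a, 4 were called lower at 100 ng/ml (Mal, Mbp and Mag among them) and 2 at 30 ng/ml (Mal and Cspg4), against 3.93% and 3.71% of all genes. The other 10 were not called at 100 ng/ml, and the median of the list there was −0.193. Mal, a protein of myelin, had a log2 fold change of −0.61 (FDR 0.000251) at 100 ng/ml. The summed TPM of the 14 was 7047 to 10420 unstimulated and 6288 to 7624 at 100 ng/ml. Their part in the Tubb4a values was not tested.

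Between 100 and 30 ng/ml, none of the 10 genes was called by edgeR's quasi-likelihood test, where 0.501% of all genes were called higher and 0.0781% lower at 100 ng/ml. At an unadjusted p under 0.05 by that test there were 2, Tubb2b and Tuba1c. Of all 15360 genes tested, 1944 had such a p, so this count does not set the 10 genes apart. DESeq2, the likelihood-ratio test and limma also called 0. The 10 log2 differences ran from −0.17 (Tubb4a, FDR 0.452) to 0.21 (Tuba1c).

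The shares of each isotype within its family cancel library scaling, and were compared by two-sided exact permutation of the cultures, where 0.00794 is the smallest p that 5 against 5 cultures can give. In all 33 tests were made over 10 genes, the α to β ratio and 3 comparisons, and 7 had a Benjamini-Hochberg adjusted p under 0.05. The log2 ratio of α to β TPM was 0.826 ± 0.0407 unstimulated, 0.869 ± 0.0227 at 30 ng/ml and 0.909 ± 0.0562 at 100 ng/ml (SD, n = 5). Against unstimulated cultures the exact test gave p 0.0794 (0.201 adjusted) for 30 ng/ml and 0.0238 (0.0786 adjusted) for 100 ng/ml, so neither passed. Without replicate 5 at 100 ng/ml the latter did (difference 0.0975, adjusted p 0.0327). Shares of a family sum to a whole, so they are not independent of each other.

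Tubb3 took a larger part of β-tubulin TPM with IL-12. Its share was 2.29%, 2.33%, 1.93%, 1.82% and 2.10% in unstimulated cultures. It was 2.86%, 2.62%, 2.73%, 2.52% and 2.64% with 30 ng/ml and 2.63%, 2.68%, 2.79%, 2.57% and 2.51% with 100 ng/ml. No stimulated culture reached down to the unstimulated ones. The difference of the means was 0.577 percentage points at 30 ng/ml and 0.538 at 100 ng/ml, each with an exact p of 0.00794 and an adjusted p of 0.0374 over the 33 tests, higher in 5 of 5 cultures. With any 1 culture at 30 ng/ml left out of the 33 tests, neither difference passed (adjusted p 0.0524 to 0.0748 by the exact test, differences 0.530 to 0.616 at 30 ng/ml and 0.538 at 100 ng/ml). The test of 100 ng/ml against unstimulated holds no 30 ng/ml culture. Its difference and exact p were therefore unchanged there, and only the adjustment over the 33 tests moved. Without replicate 2 or 3 at 100 ng/ml the difference at 100 ng/ml, 0.527 or 0.499, did not pass either (adjusted p 0.0748).

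**Figure D4:**
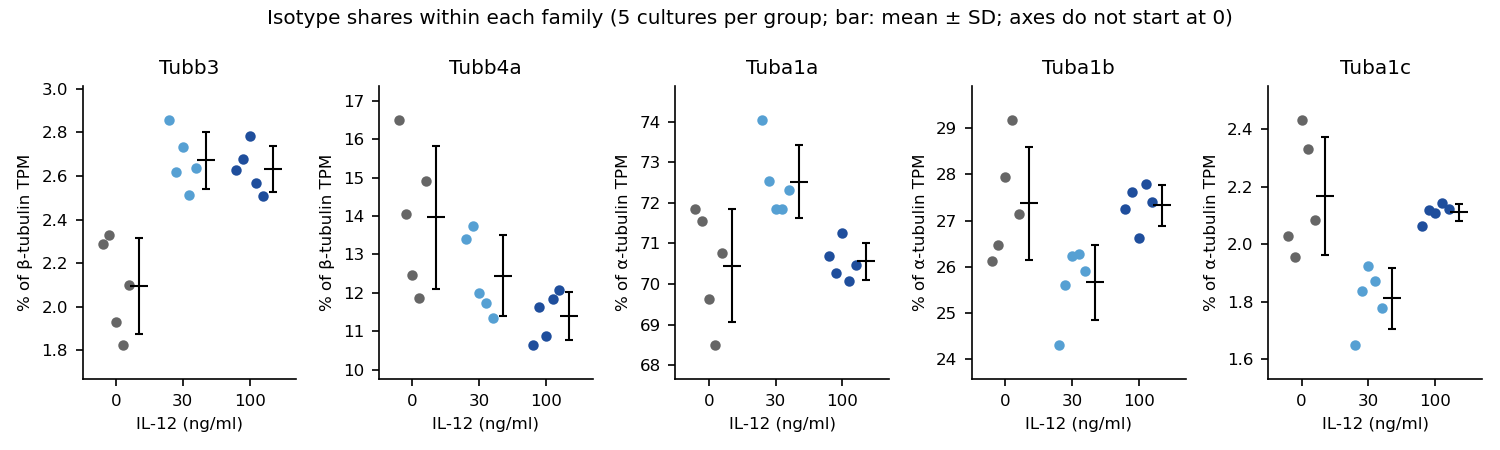
Share of Tubb3 and Tubb4a in the summed β-tubulin TPM and of Tuba1a, Tuba1b and Tuba1c in the summed α-tubulin TPM, in percent, against IL-12 in ng/ml; each point is 1 culture (n = 5 per group), each bar the mean ± SD, and the axes do not start at 0. The Tubb3 share is higher at both concentrations (2.67% and 2.63% against 2.09%), whereas the Tuba1a share stands apart only at 30 ng/ml (72.5% against 70.5% and 70.6%).

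Within α-tubulin the 2 concentrations differed. The share of Tuba1a was 70.5% ± 1.40 unstimulated, 72.5% ± 0.906 at 30 ng/ml and 70.6% ± 0.460 at 100 ng/ml (SD, n = 5). It was higher at 30 ng/ml than in unstimulated cultures and than at 100 ng/ml (exact p 0.00794 and adjusted p 0.0374 for each). The share of Tuba1c was 2.17% ± 0.205, 1.81% ± 0.106 and 2.11% ± 0.0297, lower at 30 ng/ml in both comparisons (exact p 0.00794, adjusted p 0.0374). That of Tuba1b was 27.4% ± 1.22, 25.7% ± 0.808 and 27.3% ± 0.445, higher at 100 than at 30 ng/ml (exact p 0.00794, adjusted p 0.0374), while 30 ng/ml against unstimulated did not pass (exact p 0.0238, adjusted p 0.0786). These shares rest on the division of reads between the 3 α genes. Without any 1 culture at 30 ng/ml, 0 of the 33 tests passed (lowest adjusted p 0.0524 or 0.0748). With all α-tubulin genes in the sum, the Tuba1a share at 30 ng/ml against unstimulated did not pass (2.14 percentage points, adjusted p 0.0655). Without unstimulated replicate 1, Tuba1b also passed at 30 ng/ml against unstimulated (−2.02 percentage points, adjusted p 0.0327).

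Tubb4a held 13.96% ± 1.87 of β-tubulin TPM unstimulated, 12.4% ± 1.06 at 30 ng/ml and 11.4% ± 0.624 at 100 ng/ml (SD, n = 5), and the difference at 100 ng/ml did not pass (exact p 0.0159, adjusted p 0.0655). Without unstimulated replicate 4 it did (−3.07 percentage points, adjusted p 0.0327). The shares of the other 5 β genes gave adjusted p of 0.190 to 1.0 by the exact test in 15 comparisons. The summed TPM of the α genes was 4503 ± 216, 5254 ± 100.1 and 5094 ± 263, and that of the β genes 2540 ± 135, 2876 ± 66.4 and 2714 ± 158, for unstimulated, 30 ng/ml and 100 ng/ml cultures.

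The promoters of Tubb3 and Tuba1a are shown because these genes were called at both concentrations. Each line is 250 bases before to 50 bases after the annotated start, from RefSeq on GRCm38.p6, read 5′ to 3′ on the strand of the gene. Capitals mark matches on either strand to the CCAAT box (CCAAT), the GC box (GGGCGG), the TATA box (TATAAA) and the full cAMP response element (TGACGTCA).
Tubb3 promoter (GRCm38.p6 chr8:123411303-123411602, plus strand): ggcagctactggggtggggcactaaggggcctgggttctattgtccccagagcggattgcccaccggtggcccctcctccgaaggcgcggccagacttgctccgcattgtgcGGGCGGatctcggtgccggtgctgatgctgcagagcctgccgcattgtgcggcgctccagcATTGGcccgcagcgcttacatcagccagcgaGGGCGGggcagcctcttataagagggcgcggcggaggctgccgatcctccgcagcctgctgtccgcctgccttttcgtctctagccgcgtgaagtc
Tuba1a promoter (GRCm38.p6 chr15:98953452-98953751, minus strand): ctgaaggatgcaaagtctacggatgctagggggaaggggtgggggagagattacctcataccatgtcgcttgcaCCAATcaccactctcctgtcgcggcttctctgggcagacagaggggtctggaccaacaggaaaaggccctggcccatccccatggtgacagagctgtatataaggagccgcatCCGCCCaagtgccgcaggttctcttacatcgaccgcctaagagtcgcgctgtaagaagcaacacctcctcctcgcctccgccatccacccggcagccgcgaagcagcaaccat

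The table of promoters held 8 of the 10 genes. The GC box letters were found in 6 of the 8 (Tubb3, Tubb2a, Tubb4b, Tubb5, Tuba1a and Tuba1b) and in 35.7% of all 32851 promoters. The CCAAT letters were found in 5 (Tubb3, Tubb4b, Tubb5, Tuba1a and Tuba1c) and in 37.4% of all. TATAAA was found in Tubb2a and Tubb4b and in 13.6% of all, and TGACGTCA in Tubb2a and in 1.79% of all. The letters TTCNNNGAA, to which STAT factors bind, were found in 0 of the 8 and in 8.3% of all, which says only that these letters are not in these windows. CANNTG, the E-box, was found in 6 and in 72.3% of all promoters. The motifs were searched on both strands, matches of different motifs can share letters, and a match is not a binding site.

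The neuron markers were set beside Tubb3. Of the 18 tested, 0 were called higher at either concentration, 2 were called lower at 30 ng/ml and 1 at 100 ng/ml, where 3.71% and 3.93% of all genes were called lower. At either concentration alone, counts as small as these do not set the list apart from all genes. Over both concentrations 0 were called higher and 4 lower (Calb1, Gad1, Syt1 and Gad2), where 5.22% of all genes were called lower. Calb1, a calcium-binding protein of Purkinje cells, had a log2 fold change of −0.53 (edgeR FDR 0.00706) at 30 ng/ml and −0.56 (FDR 0.00346) at 100 ng/ml. Gad1, the GABA-synthesizing enzyme of inhibitory neurons, had −0.49 (FDR 0.0448) and −0.40 (FDR 0.0909). The median of the 18 was −0.49 with 30 ng/ml and −0.254 with 100 ng/ml. Not all of them lay below 0. Zic1, the most abundant of the 18, had 0.14 (edgeR FDR 0.0993) at 30 ng/ml and 0.08 (FDR 0.343) at 100 ng/ml. At 30 ng/ml Zic2 (0.09, FDR 0.297) and Elavl4 (0.06, FDR 0.839) also lay above 0, and at 100 ng/ml Gabra6 did (0.02, FDR 0.973). All others had values below 0. The synaptic genes Snap25 and Syt1 had values of −0.63 (FDR 0.0957) and −0.51 (FDR 0.0614) at 30 ng/ml, which did not pass. Over both concentrations Syt1 was called lower (−0.49, edgeR FDR 0.0276) and Snap25 was not called (−0.53, FDR 0.0779).

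**Figure D5:**
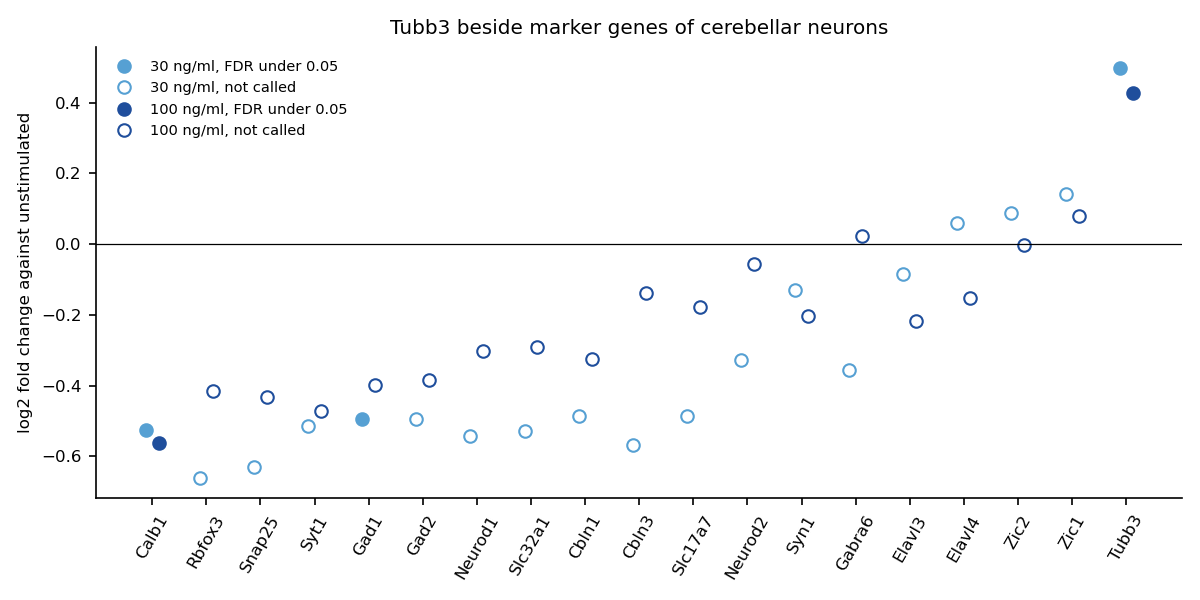
Log2 fold change against unstimulated cultures of 18 marker genes of cerebellar neurons, ordered by their mean over both concentrations, and of Tubb3, at 30 ng/ml (light) and 100 ng/ml (dark), filled where the edgeR FDR was under 0.05 (n = 5 cultures per group). Calb1 lies at −0.53 and −0.56, and Tubb3 at 0.50 and 0.43.

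Some markers of other cells were called too. Of all genes tested, 4.16% were called higher and 3.71% lower at 30 ng/ml, and 5.83% higher and 3.93% lower at 100 ng/ml. In lists this short, a count of 1 does not set a list apart from all genes. Of 15 microglia markers, 10 were called lower at 30 ng/ml and 0 at 100 ng/ml, with sums of 9673 to 13610 TPM unstimulated, 7724 to 9628 at 30 ng/ml and 9182 to 12070 at 100 ng/ml. Over both concentrations 7 microglia markers were called lower, where 5.22% of all genes were. Trem2, a receptor of microglia, had a log2 fold change of −0.51 (edgeR FDR 0.00638) at 30 ng/ml. Of 12 astrocyte markers, 4 were called higher at 30 ng/ml (Gjb6, Aldoc, Slc1a3 and Aldh1l1), and at 100 ng/ml 2 higher (Gjb6 and Aldoc) and 1 lower (Gja1). Their sums were 4089 to 4549 TPM unstimulated, 4793 to 5580 at 30 ng/ml and 4520 to 4988 at 100 ng/ml. Aldoc, a glycolytic enzyme rich in astrocytes, rose by 0.27 (FDR 0.0120) and 0.29 (FDR 0.00651) on the log2 scale. Of 9 fibroblast markers, Pdgfrb and Col1a1 were called higher at 100 ng/ml and Col6a2 lower at 30 ng/ml, and of 12 cell cycle genes Mcm2 was called higher at 100 ng/ml. Flt1, an endothelial receptor, was called lower at both. No marker of ependyma or of T and NK cells was called. The part of these markers in the tubulin values was not tested.

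Over the 15 cultures, the genes whose log2 CPM (counts scaled to library size) followed Tubb3 most closely among 14173 protein-coding genes were Serpina3n (Pearson r 0.963), Chst2 (0.959), Lrrc75b (0.948), Unc13b (0.939) and Bdh1 (0.938). Serpina3n encodes a secreted protease inhibitor of reactive astrocytes and acute inflammation, Unc13b a protein that primes synaptic vesicles, and Bdh1 an enzyme of ketone body metabolism. Spearman's rho was 0.939, 0.961, 0.925, 0.832 and 0.807. The points share the libraries and the 3 groups, and after the group means were removed r was 0.870, 0.885, 0.792, 0.754 and 0.745. With the group means removed the order was another. It was led by Apba2 (r 0.949) and Jph3 (r 0.916, and −0.293 over all cultures), and its first 5 held none of the genes above. Serpina3n was 243.0 to 348.5 TPM unstimulated, 455 to 561 at 30 ng/ml and 432 to 460 at 100 ng/ml. Of the tubulin genes, Tuba1a followed Tubb3 most closely (r 0.931, and 0.787 with the group means removed), and Tuba1c least (r 0.0108 and −0.155).

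The rest of the microtubule system was described by lists of genes. Their counts stand against 4.16% of all genes called higher and 3.71% lower at 30 ng/ml, and 5.83% higher and 3.93% lower at 100 ng/ml, and in lists of about 20 genes a count of 1 or 2 is near those shares. Of 10 further tubulin genes, 6 had enough reads, and 0 were called in any comparison with unstimulated cultures. Their median log2 fold changes were 0.0134 at 30 ng/ml and 0.131 at 100 ng/ml. Tubg1, the γ-tubulin of nucleation sites, had 0.14 (edgeR FDR 0.0831) and 0.12 (FDR 0.146). Tuba8 had 0.27 (FDR 0.440 and 0.398) and Tuba4a 0.02 (FDR 0.915) and 0.15 (FDR 0.138), at 30 and 100 ng/ml. Tube1, ε-tubulin of centrioles, had −0.08 (FDR 0.690) and −0.06 (FDR 0.758). Of 22 folding and autoregulation genes, the chaperonin subunits, prefoldins, tubulin cofactors and Ttc5, again 0 were called. The chaperonin subunits Cct7 and Cct5 had 0.11 each at 100 ng/ml (FDR 0.0973 and 0.0983). The prefoldin Vbp1 had −0.13 (FDR 0.196) and the cofactor Tbcd 0.12 (FDR 0.0806).

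Of 20 tubulin-modifying enzymes, 3 were called higher and 0 lower at 30 ng/ml, and 1 higher and 2 lower at 100 ng/ml, where 5.83% and 3.93% of all genes were. Hdac6, the cytoplasmic deacetylase of α-tubulin, rose at both by 0.26 on the log2 scale (edgeR FDR 0.00604 at 30 and 0.00456 at 100 ng/ml). Ttl, which restores the terminal tyrosine of α-tubulin, rose by 0.23 at 30 ng/ml (FDR 0.00704) and had 0.12 at 100 ng/ml (FDR 0.110). Vash1, which removes that tyrosine, rose by 0.26 at 30 ng/ml (FDR 0.0445) and had 0.20 at 100 ng/ml (FDR 0.107). Agbl3, a deglutamylase, was lower at 100 ng/ml (−0.26, FDR 0.0346) and had −0.16 at 30 ng/ml (FDR 0.202), and Agtpbp1, another deglutamylase, was lower at 100 ng/ml (−0.17, FDR 0.0424). The median of the list was 0.101 with 30 ng/ml and 0.00728 with 100 ng/ml.

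Of 19 proteins that bind the microtubule lattice, 2 were called higher at 30 ng/ml and 3 lower at 100 ng/ml, with medians of 0.0445 and −0.0516. The doublecortin-like kinases Dclk1 and Dclk2 rose at 30 ng/ml (log2 fold changes 0.39, edgeR FDR 0.00392, and 0.32, FDR 0.00604). Dclk1 was then lower at 100 than at 30 ng/ml by −0.34 (FDR 0.0369), the only gene of these lists other than markers called between the concentrations. Mapt, which encodes tau, was lower at 100 ng/ml (−0.31, FDR 0.00910), as was Camsap1, a protein of minus ends (−0.17, FDR 0.0396). At 30 ng/ml these 2 had −0.12 (FDR 0.311) and −0.15 (FDR 0.0709). The remaining one called lower at 100 ng/ml was Tppp, a protein of oligodendrocytes (−0.32, FDR 0.0487).

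Of 19 plus-end and destabilizing proteins, 1 was called lower at 30 ng/ml and 2 at 100 ng/ml, with medians of −0.013 and −0.0462. Stmn4, a stathmin of neurons that binds free tubulin, was lower at both (−0.33, edgeR FDR 0.00779, and −0.37, FDR 0.00292). Mapre2, a plus-end protein, was lower at 100 ng/ml (−0.18, FDR 0.0168). Clasp2 and the depolymerizing kinesin Kif2a had −0.19 (FDR 0.0540) and −0.15 (FDR 0.118) at 100 ng/ml. Of 20 motor genes, 1 was called lower at 30 ng/ml and 2 at 100 ng/ml, with medians of −0.00948 and −0.0837. The kinesin Kif21b was lower at both (−0.32, FDR 0.00676, and −0.29, FDR 0.00912), and the dynein chain Dync1i2 at 100 ng/ml (−0.16, FDR 0.0266). The dynein chains Dync1li1 and Dynll1 had −0.12 (FDR 0.0646) and 0.12 (FDR 0.118) at 100 ng/ml.

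Of 17 neurofilament and axon growth genes, 14 had enough reads. At 30 ng/ml 2 were called higher and 2 lower, and at 100 ng/ml 0 higher and 3 lower, with medians of −0.0371 and −0.0903. Gap43, a protein of growth cones, rose by 0.25 at 30 ng/ml (edgeR FDR 0.0156) and had 0.08 at 100 ng/ml (FDR 0.454). Dpysl3, which binds tubulin dimers in growing axons, rose by 0.25 at 30 ng/ml (FDR 0.01003) and had 0.14 at 100 ng/ml (FDR 0.124). Ina, a neurofilament subunit, was lower at both (−0.44, FDR 0.0111 and 0.00876), as was Atf3, a transcription factor of injured neurons (−0.36, FDR 0.00929, and −0.32, FDR 0.0149). Sox4, a transcription factor of young neurons, was lower at 100 ng/ml (−0.19, FDR 0.0473). Between 100 and 30 ng/ml neither Gap43 (−0.18, FDR 0.234) nor Dpysl3 (−0.11, FDR 0.407) was called.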

How the data were processed

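RNA of 15 cultures, 5 per group, was sequenced from stranded poly(A) libraries as single-end reads of 100 bases. Per the labels and the methods, the authors used FastQC 0.10.0, STAR 2.7.8a and featureCounts on GRCm39 with GENCODE M26. The deposited tables are of another kind. For each of 121798 transcripts per culture they hold TPM values and estimated counts beside lengths, as deposited by the authors, and the program that made these estimated counts and TPM values is not given in the sources used here. It is also not known whether it used the strand. Tubb2a, Tubb2b, Tubb4b, Tubb5, Tubb6, Tuba1a and Tuba1b overlap a gene on the other strand, and a readthrough gene, Gm49450, spans Tuba1a and Tuba1b on the same strand.

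Transcripts were assigned to genes with GENCODE M39, which matched 120537 (99.0%). The rest held 0.677% to 0.712% of the reads. Estimated counts and TPM were summed per gene, and counts were rounded. The comparisons had been planned on counts per gene. The 15360 genes that reached 1 CPM in 2 or more cultures were scaled with TMM and tested in 1 model of the 3 groups with edgeR 4.0.16 (R 4.3.3, quasi-likelihood test), and Benjamini-Hochberg adjusted over all of them. In simulated data for 100 ng/ml against unstimulated, 15253 genes were tested. Of changes of 0.25, 0.5 and 1 on the log2 scale, 42.6%, 93.9% and 100% were called. Small changes could therefore be missed with 5 cultures per group. The simulation changed 68, 66 and 66 genes at these sizes, none of them with low counts, whereas 1500 genes were called in the data. The shares called may therefore differ from those of the data. Transcripts were fitted in the same way. Shares were compared by exact permutation.

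Alternatives were DESeq2 1.42.0, the likelihood-ratio test, limma 3.58.1 on log2(TPM + 0.1), RLE factors, library size alone, no filter, at least 10 counts in every culture, only the groups compared, the replicate block, an FDR under 0.01 and each culture left out. Log2 CPM for likeness had a prior count of 2. Coding ends and identities came from GENCODE M39 (Biopython 1.88), whose main transcripts differ in length from those of the deposited tables for all 10 genes, so windows were taken from coding sequences. The rule for named genes took the 10 tubulin genes, the 5 genes most like Tubb3, and up to 4 genes with the smallest FDR over both concentrations from each list. Agtpbp1, Tppp, Sox4, Apba2, Jph3 and the marker genes named fall outside that rule and were chosen after their values were seen. The genes, the lists and the tests were chosen with earlier results of these data known. The coding ends of Tubb6 and of the α-tubulin genes, and 1 oligodendrocyte marker, are not reported here.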

Additional observations from a re-analysis of the deposited data

Results flagged for a closer look

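Levels and shares of the 10 genes gave 60 groups of 5 values. In 2 of them the highest or lowest culture stood far from the others, and chance alone gives about 1 in 20. Tubb2b in replicate 3 at 100 ng/ml was 355.4 TPM, where the next culture was 317.9 and the lowest 303.3. Tubb4b in replicate 2 at 100 ng/ml was 774.0 TPM, where the next was 891.1 and the highest 926.1.

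With all cultures kept, the composition of α-tubulin differed between the concentrations. The share at 100 minus that at 30 ng/ml was −1.97 percentage points for Tuba1a, 1.67 for Tuba1b and 0.300 for Tuba1c, each with an exact permutation p of 0.00794 and an adjusted p of 0.0374. These shares sum to a whole, so the differences are not independent results. With any 1 culture at 30 ng/ml left out, none of them passed (adjusted p 0.0524 or 0.0748 by the exact permutation test). The same 3 genes share most of their coding windows with each other, and the part of that in these shares was not tested.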

How the results depend on the processing

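The rise of Tubb3 kept its call at both concentrations in all settings tried. Tuba1a kept it at 30 ng/ml in all settings but an FDR under 0.01 (its FDR was 0.0129), and over both concentrations in all. Other tubulin calls lay near the threshold. The number of the 10 genes called at 100 ng/ml, 3, became 1 with no filter on low counts, 1 with only the groups compared and 1 at an FDR under 0.01. At 30 ng/ml, 4 became 2 with no filter, 2 with the replicate block and 1 at an FDR under 0.01. Over both, 5 became 3 with no filter, 2 with the replicate block and 2 at an FDR under 0.01. With 1 culture left out, the counts were 1 to 8 at 100 ng/ml, 2 to 5 at 30 ng/ml and 2 to 8 over both, the highest each without replicate 2 at 100 ng/ml.

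Of all genes, 1500 were called at 100 ng/ml, against 946 with only the groups compared, 827 with limma, 527 at an FDR under 0.01 and 940 to 2932 with 1 culture left out. At 30 ng/ml 1209 were called, against 404 at an FDR under 0.01 and 673 to 1668 with 1 culture left out. Between the concentrations 89 were called, against 241 with DESeq2, 253 with the likelihood-ratio test, 51 with limma, 35 at an FDR under 0.01 and 38 to 147 with 1 culture left out. Over both 1832 were called, against 1211 with limma, 704 at an FDR under 0.01 and 1203 to 2837 with 1 culture left out. The share tests passing, 7, ranged from 0 to 8.

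Signs turned for values near 0. Tubb4a at 30 ng/ml was 0.00042 with library size alone, 0.0213 with limma and −0.0846 to 0.0507 with 1 culture left out. Between the concentrations, Tubb5 was −0.0173 and Tubb6 −0.0047 with limma, and Tubb4b ranged over −0.0250 to 0.0553 with 1 culture left out. Tubb2b at 100 ng/ml ranged over −0.0106 to 0.0758 with 1 culture left out. With 1 culture left out, the share differences ranged over −0.0782 to 0.0077 (Tubb3, 100 minus 30 ng/ml), −0.392 to 0.445 (Tuba1a, 100 ng/ml against unstimulated), −0.355 to 0.406 (Tuba1b) and −0.107 to 0.0118 (Tuba1c). Beyond the FDR threshold and the cultures left out, the causes were not tested.

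The labels give the groups the same replicate numbers without saying that they mark a shared litter or day. Of the 15 same-numbered pairs, 4 had a correlation of deviations over 0.1 (−0.183 to 0.264), so the numbers were not taken as pairs, and the replicate block called 2, 2 and 2 of the 10 genes at 100 ng/ml, 30 ng/ml and over both. Not run were sums with tubulin pseudogenes, which had no matched transcript, and a fit of the mean of both concentrations with only 2 groups.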
